A study of Homo sapiens with 27 samples.

Results

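The genes described here encode the protein machinery of pre-mRNA splicing. They comprise 54 of the 57992 genes in the expression table and were chosen by gene symbol. By role they are 7 proteins of the Sm ring, 5 proteins of the U1 and U2 particles, 7 proteins of the LSm ring, 10 SF3 and 3' splice site factors, 3 PRPF proteins, 12 SR and Tra2 proteins, 8 hnRNP proteins and 2 CLK kinases. All 54 passed the filter on low counts in each fit. RNA was sequenced in 3 human acute myeloid leukaemia cell lines after knockdown of CARM1 (also called PRMT4), an arginine methyltransferase. Each line had 9 libraries: 3 with CARM1 hairpin 1, 3 with CARM1 hairpin 2 and 3 with a scramble hairpin as control. The hairpins were delivered by a lentivirus that expresses them constitutively, and RNA was taken 3 days later. MOLM13 (MOLM-13) and MV411 carry a KMT2A rearrangement. SKNO1 carries the RUNX1-RUNX1T1 fusion, and GM-CSF (10 ng/mL) was in the medium of all its groups. Each line is 1 model grown in culture, and no label states whether its replicates were separate infections.

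The spliceosome removes introns in steps carried out by particles of small nuclear RNA (snRNP) and protein. A ring of Sm proteins holds the U1, U2, U4 and U5 RNAs and the related LSm ring holds the U6 RNA. SR proteins mostly promote the use of nearby splice sites, hnRNP proteins often oppose it, and CLK kinases phosphorylate SR proteins. CARM1 is known to methylate several splicing factors, among them the products of SNRPB, SNRPC and SF3B4. Some myeloid leukaemias carry mutations in the splicing genes SF3B1, SRSF2, U2AF1 or ZRSR2.

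The libraries were first checked against their labels. Levels are given in CPM, counts scaled to library size on a scale shared by all 27 libraries. CARM1 averaged 4.37 ± 1.31, 4.56 ± 1.74 and 5.15 ± 2.81 CPM in the knockdown libraries of MOLM13, MV411 and SKNO1 (SD, n = 6 each), against 24.5 ± 4.15, 23.3 ± 0.621 and 17.8 ± 1.96 CPM in their scramble libraries (SD, n = 3 each). In SKNO1 the fold change of CARM1 was -1.25 ± 0.19 for hairpin 1 and -2.69 ± 0.20 for hairpin 2 (log2 ± SE). HOXA9, HOXA10, MEIS1 and PBX3, genes that KMT2A fusions keep on, had at least 18.3 CPM in every scramble library of MOLM13 and MV411 and at most 0.0655 CPM in those of SKNO1. RUNX1T1 averaged 70.1 ± 1.85 CPM in scramble libraries of SKNO1, and the stem cell marker CD34 was at most 0.0218 CPM there. FLT3, also listed as a marker of the KMT2A lines, and KIT, listed for SKNO1, passed the filter on low counts in both MOLM13 and SKNO1. POU4F1, also listed for SKNO1, passed it in SKNO1 and not in MOLM13. The libraries held between 25063577 and 53291599 expected counts, and the members' counts ranged from 63.1 to 75713. In SKNO1, the chi-square per gene between scramble replicates 1 and 3 was 7.01, the smallest of all replicate pairs (next 19.0), while replicate 2 differed from both of them by 50 and 61.1.

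Of the 54 members, 47 have an entry among RefSeq's promoter sequences (GRCh38.p14). Their windows of 250 bases before the annotated start were searched on both strands for 4 short motifs, which were chosen with the sequences at hand. A gene was counted as having a motif if any of its windows held it. The core bound by ETS factors, CCGGAAG, was in 38.3% of the members (18 of 47). This compares with 10.2% of all 27305 genes with an entry and 18.5% of the 10304 tested in MOLM13. The motif of NRF1 was in 29.8% of the members (14 of 47), against 6.2% and 11.7%. The E-box CACGTG, the site of MYC and related factors, was in 8.51% of them (4 of 47), against 7.73% and 11.3%. The E2F motif TTTNNCGC was in 14.9% (7 of 47), against 7.15% and 11.1%. The ETS core was in 38.9% of the 18 members with an entry that fell in the 3 lines combined and in 37.9% of the other 29. The NRF1 motif was in 11.1% of those 18 and in 41.4% of the other 29. The E-box was in 5.56% and 10.3% of them, and the E2F motif in 16.7% and 13.8%. These shares were not tested, and a match is not evidence of binding. The 150 bases before the RefSeq start are shown for SNRPB and SNRPA1, which fell with knockdown, and for CLK4, which rose in MV411. All 3 lie on the minus strand, at chr20:2470790-2470939, chr15:101295249-101295398 and chr5:178627051-178627200, and are read 5' to 3' along the gene. Transcripts of GENCODE 29 reach past each of these starts. Capitals mark the ETS core in SNRPB, the reverse complement of that core in SNRPA1 and the E-box in CLK4.
SNRPB: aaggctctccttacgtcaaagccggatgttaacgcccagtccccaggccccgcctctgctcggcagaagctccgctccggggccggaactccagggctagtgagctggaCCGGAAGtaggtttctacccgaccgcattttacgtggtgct
SNRPA1: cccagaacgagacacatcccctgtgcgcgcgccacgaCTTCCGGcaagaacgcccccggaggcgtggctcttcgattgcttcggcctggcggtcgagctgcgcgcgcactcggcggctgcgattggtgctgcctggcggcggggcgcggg
CLK4: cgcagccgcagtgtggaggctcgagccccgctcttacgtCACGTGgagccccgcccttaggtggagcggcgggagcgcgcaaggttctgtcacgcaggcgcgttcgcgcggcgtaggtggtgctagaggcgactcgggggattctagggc
The first base of the marked motif lies 41 bases before the start in SNRPB, 113 before it in SNRPA1 and 111 before it in CLK4.

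In MOLM13, 19 of the 54 members fell with CARM1 knockdown and none rose (adjusted p under 0.05 by edgeR's quasi-likelihood test over all genes tested). Over all 17732 genes tested in this line, 9.09% fell and 6.48% rose. The median fold change of the members was -0.42, with 49 of 54 below 0, against 0.05 for all genes (log2, knockdown over scramble). In 25 members every knockdown library lay below every scramble library, and in none did every one lie above. This held for 12.5% of all genes below and 8.8% above. The members summed to 6402 ± 499 CPM in the 6 knockdown libraries, against 8012 ± 241 CPM in the 3 scramble libraries. The ranges did not overlap (exact permutation test, two-sided p = 0.0119, the smallest this design allows, and 0.0298 after adjustment over 15 such tests). Fewer cells of a kind and less RNA per cell cannot be told apart in such bulk samples. Mitochondrial rRNA made up 28.25% ± 1.86 of the counts in knockdown libraries of MOLM13 and 24.9% ± 1.82 in scramble libraries. Abundant structured RNAs made up 17.9% ± 3.1 and 12.4% ± 1.13. Their part in the members' fall was not tested. With these RNAs left out of the counts 22 members fell, and the median of all genes shifted by -0.01 (log2). Leaving them out mainly changes the scaling, so it cannot test that part. The number of calls was 10 without scramble replicate 2 and 28 without hairpin 2 replicate 2.

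**Figure D1:**
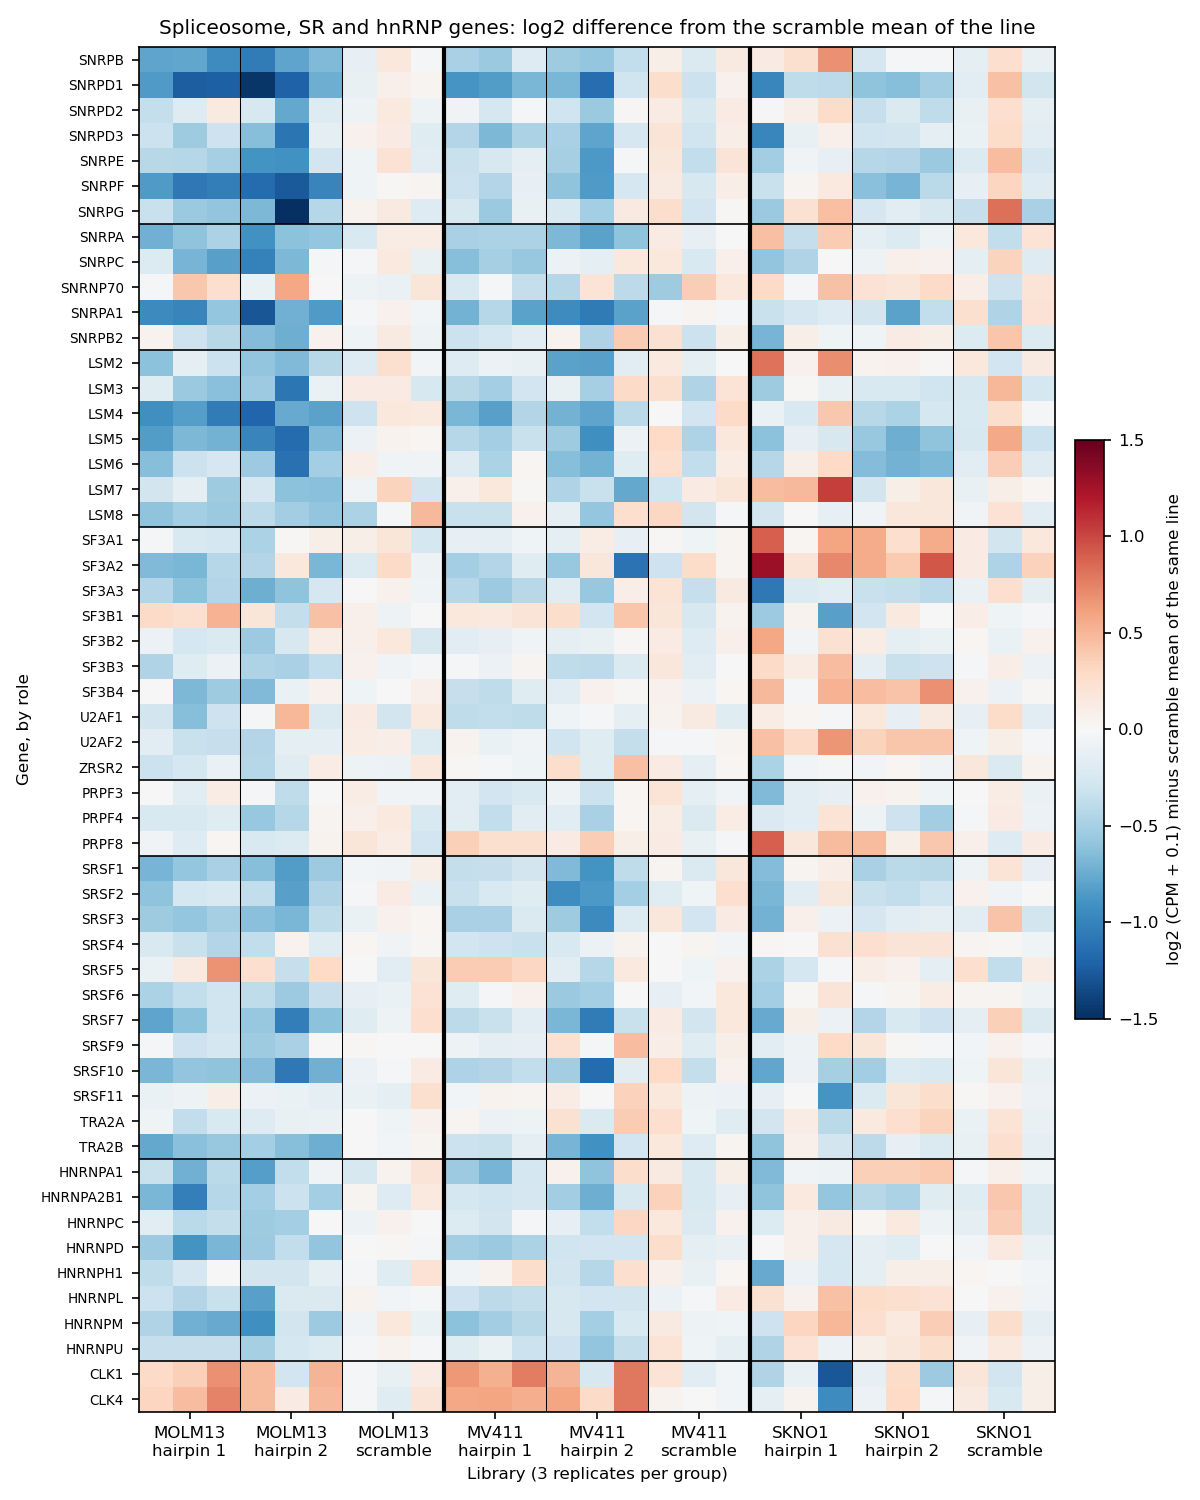
Each row is a gene and each column a library, ordered as hairpin 1, hairpin 2 and scramble within each line. Colour gives log2 (CPM + 0.1) minus the mean of the line's 3 scramble libraries. Blue cells fill most of the Sm, LSm and SR rows of MOLM13, where 49 of 54 genes had a fold change below 0, and the 2 CLK rows are red in MOLM13 and MV411.

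The Sm ring held the largest falls in MOLM13. SNRPD1, SNRPF, SNRPB and SNRPE fell, and all 7 fold changes were below 0, with a median of -0.64. SNRPD1 had 31.0, 23.8 and 24.0 CPM with hairpin 1 and 20.3, 24.1 and 33.9 CPM with hairpin 2, against 52.1, 59.1 and 57.6 CPM with scramble. All 6 knockdown libraries lay below the scramble range. Its fold change was -1.10 ± 0.15 (log2 ± SE, adjusted p = 0.000967). SNRPF had 16.9, 14.4 and 14.8 CPM with hairpin 1 and 13.7, 12.7 and 15.4 CPM with hairpin 2, against 29.3, 30.9 and 31.5 CPM with scramble. This is a narrow spread within each group, and the fold change was -1.05 ± 0.11 (adjusted p = 0.000206). SNRPB, which encodes SmB and SmB' and is a known CARM1 substrate, had 101, 102 and 90.6 CPM with hairpin 1 and 84.5, 101 and 110 CPM with hairpin 2, against 160, 195 and 171 CPM with scramble. The groups again did not overlap, and the fold change was -0.83 ± 0.12 (adjusted p = 0.00139). SNRPE changed by -0.56 ± 0.15. SNRPD2, SNRPD3 and SNRPG did not pass the threshold.

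Among the proteins particular to U1 and U2, SNRPA1 and SNRPA fell in MOLM13. SNRPA1 encodes U2-A', a protein of the U2 particle. Its level was 10.3, 10.1 and 13.4 CPM with hairpin 1 and 8.19, 12.2 and 11.1 CPM with hairpin 2, against 19.9, 21.0 and 19.5 CPM with scramble. The knockdown libraries were all well below the scramble libraries, with a fold change of -0.88 ± 0.15 (adjusted p = 0.00316). SNRPA, the U1-A protein, had 35.3, 38.2 and 42.0 CPM with hairpin 1 and 31.1, 38.1 and 39.1 CPM with hairpin 2, against 50.003, 63.3 and 62.9 CPM with scramble. Its groups did not overlap, and it changed by -0.65 ± 0.12. SNRNP70, the U1-70K protein that recruits U1 to SR proteins, was at 0.21 ± 0.17 and did not pass. SNRPC, the U1-C protein, was at -0.53 ± 0.20 with an adjusted p of 0.0921.

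The LSm ring had fold changes below 0 in all 7 genes in MOLM13, with a median of -0.54, and LSM4, LSM5 and LSM8 fell. LSM4 had 35.1, 37.4 and 31.9 CPM with hairpin 1 and 29.1, 39.4 and 38.1 CPM with hairpin 2, against 53.6, 74.0 and 73.6 CPM with scramble. No knockdown library reached the lowest scramble library, and the fold change was -0.92 ± 0.14 (adjusted p = 0.0018). LSM5 had 17.1, 19.2 and 18.6 CPM with hairpin 1 and 15.3, 13.7 and 19.3 CPM with hairpin 2, against 28.7, 31.7 and 31.3 CPM with scramble. Its groups were as clearly apart, and it changed by -0.82 ± 0.13. LSM8, the subunit that keeps the ring in the nucleus, had 40.0, 42.7 and 41.5 CPM with hairpin 1 and 46.2, 42.3 and 40.4 CPM with hairpin 2, against 43.9, 60.1 and 85.3 CPM with scramble. The scramble libraries were spread widely and hairpin 2 replicate 1 reached above the lowest of them. LSM8 changed by -0.57 ± 0.17 (adjusted p = 0.0445) and missed the threshold in 9 of 15 alternative analyses.

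Of the 10 factors that recognise the branch site and the 3' splice site, only SF3A3, a subunit that helps tie SF3 to U2, fell in MOLM13, and their median was -0.22. SF3A3 had 55.4, 48.9 and 55.5 CPM with hairpin 1 and 45.1, 49.5 and 63.2 CPM with hairpin 2, against 74.8, 78.7 and 71.8 CPM with scramble. The groups did not overlap (log2 fold change -0.50 ± 0.12, adjusted p = 0.0175). SF3B1, which contacts the branch site and is mutated in some myeloid leukaemias, was at 0.25 ± 0.17 and did not pass. Neither did U2AF1 (-0.11 ± 0.22) or ZRSR2 (-0.19 ± 0.19). U2AF1 has a near-identical copy in this genome, U2AF1L5, to which the authors' counting assigned part of the reads. With both summed, an alternative added after the data were seen, U2AF1 was at -0.30 and again did not pass. None of PRPF3, PRPF4 and PRPF8, proteins of the U4/U6 and U5 particles, passed, and their fold changes lay between -0.26 and -0.06.

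**Figure D2:**
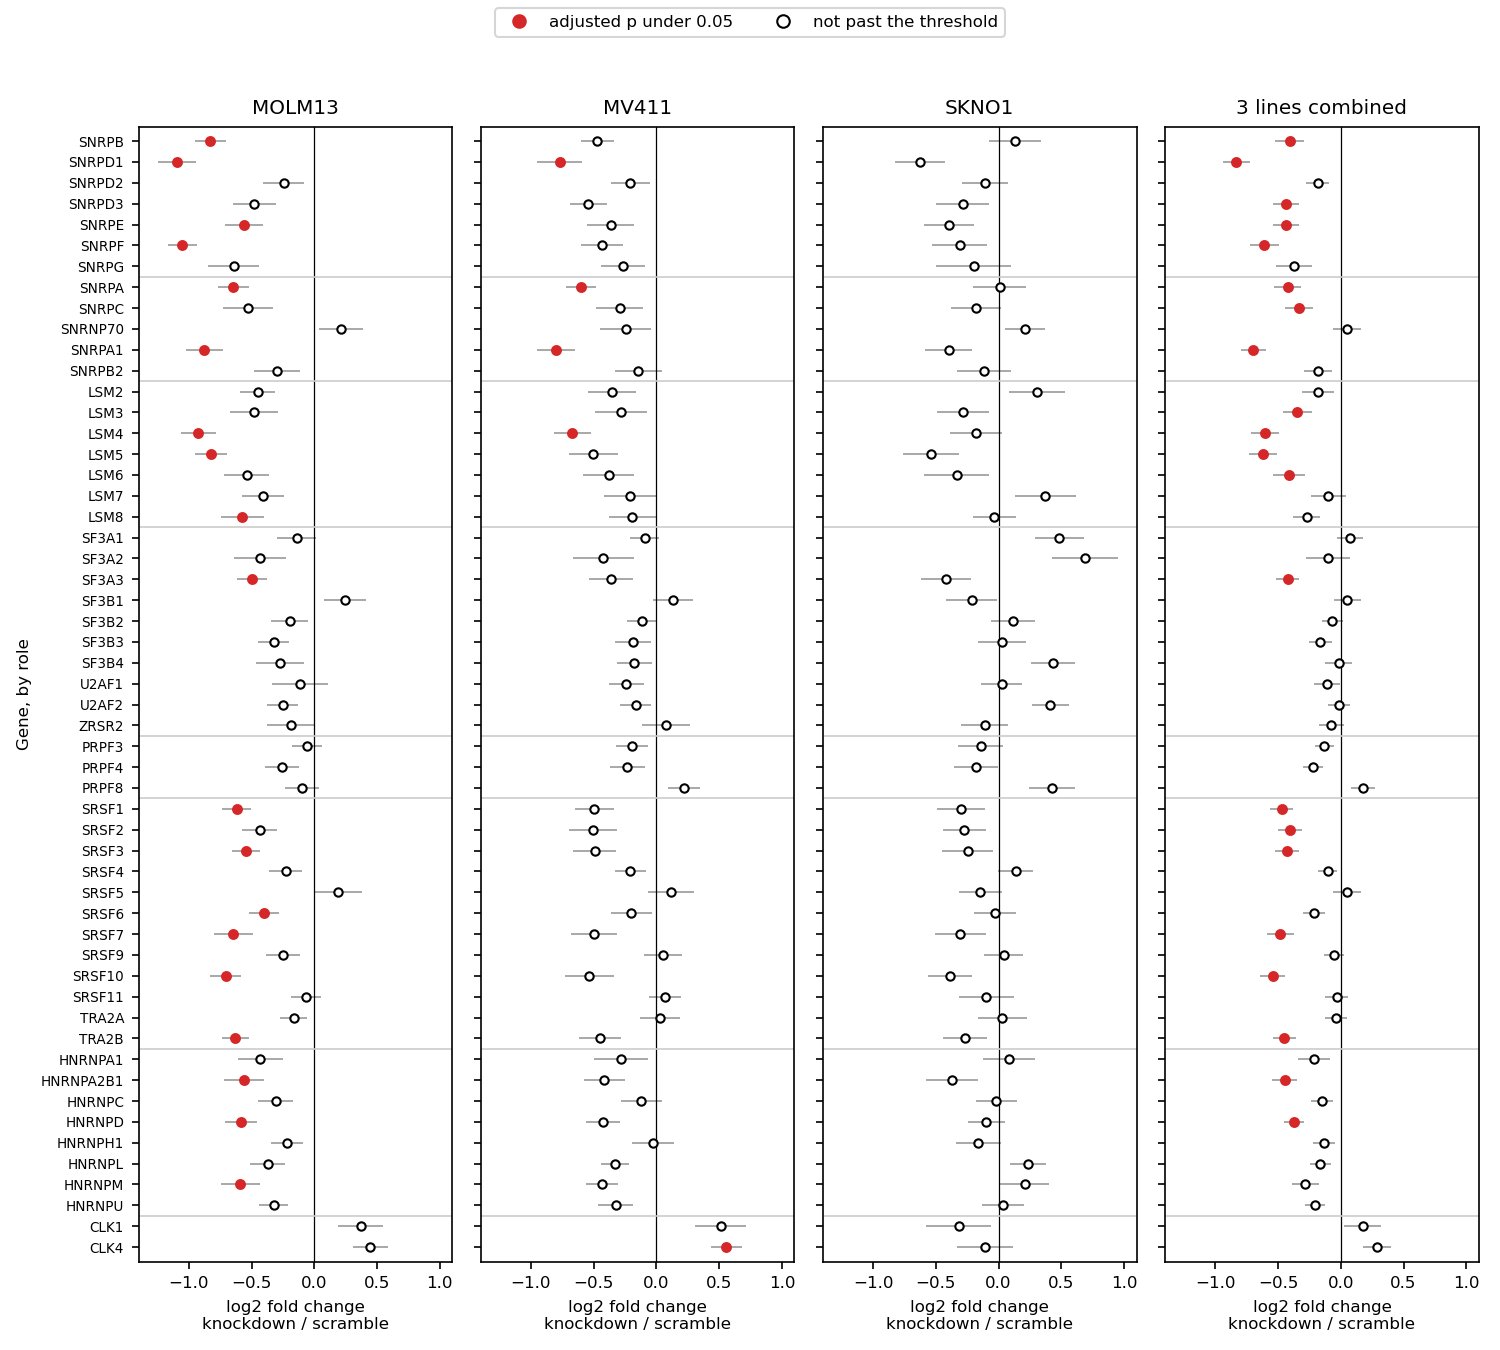
Points give the log2 fold change of each gene, knockdown over scramble, with its SE as a bar, in the 3 lines and in the 3 lines combined. Red points have an adjusted p under 0.05. MOLM13 shows 19 red points below 0, MV411 shows 4 below 0 and CLK4 above, SKNO1 shows none, and the combined fit shows 21 below 0.

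The SR and Tra2 genes were divided. SRSF10, SRSF7, TRA2B, SRSF1, SRSF3 and SRSF6 fell in MOLM13, 6 of 12. SRSF1, the founding SR protein, had 159, 173 and 184 CPM with hairpin 1 and 165, 144 and 177 CPM with hairpin 2, against 251, 249 and 274 CPM with scramble. The groups were far apart relative to their spread, with a fold change of -0.62 ± 0.11 (adjusted p = 0.00437). SRSF10, an SR protein that acts as a repressor when it is not phosphorylated, had 84.4, 89.9 and 89.0 CPM with hairpin 1 and 86.4, 64.6 and 81.9 CPM with hairpin 2, against 127, 133 and 148 CPM with scramble. No knockdown library came near the scramble libraries, and the fold change was -0.71 ± 0.12. TRA2B, which binds purine-rich exonic enhancers, had 131, 145 and 151 CPM with hairpin 1 and 157, 143 and 134 CPM with hairpin 2, against 224, 216 and 230.0 CPM with scramble. Its scramble libraries lay close together above all others, and it changed by -0.63 ± 0.11. SRSF2 was at -0.44 ± 0.14 with an adjusted p of 0.0558. SRSF5 was at 0.19 ± 0.19, SRSF11 at -0.06 and TRA2A at -0.16, and none of these 3 passed.

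All 8 hnRNP genes had fold changes below 0 in MOLM13, and HNRNPD, HNRNPM and HNRNPA2B1 fell. HNRNPM had 74.7, 62.0 and 60.6 CPM with hairpin 1 and 53.8, 84.3 and 69.9 CPM with hairpin 2, against 98.3, 114 and 94.8 CPM with scramble. The highest knockdown library stayed below the lowest scramble library (log2 fold change -0.59 ± 0.15, adjusted p = 0.0251). HNRNPD, known as AUF1 for its binding to AU-rich elements of mRNA, had 46.7, 36.4 and 42.3 CPM with hairpin 1 and 46.4, 52.6 and 45.1 CPM with hairpin 2, against 68.4, 68.9 and 66.8 CPM with scramble. The scramble libraries hardly varied, and the fold change was -0.59 ± 0.13. HNRNPA2B1 had 175, 138 and 209 CPM with hairpin 1 and 197, 225 and 198 CPM with hairpin 2, against 291, 246 and 312 CPM with scramble. Its groups did not overlap. HNRNPA2B1 changed by -0.56 ± 0.16, a call that 7 of 15 alternatives did not give. HNRNPA1 was at -0.43 and did not pass. Per kilobase of exon, HNRNPA1 had the highest level of the 54 in scramble libraries of all 3 lines (225.5 ± 33.9 CPM per kilobase in MOLM13) and ZRSR2 the lowest (1.64 ± 0.168), each as SD with n = 3.

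The CLK kinases were the members with the highest fold changes in MOLM13 and MV411. CLK4 had 44.9, 45.3 and 44.0 CPM with hairpin 1 and 45.3, 36.6 and 52.3 CPM with hairpin 2 in MV411, against 31.1, 29.9 and 29.1 CPM with scramble. All 6 knockdown libraries were above the scramble range, and CLK4 rose by 0.56 ± 0.13 (log2, adjusted p = 0.0252), though 7 of 15 alternatives did not give that call. In MOLM13, CLK4 had 45.3, 50.1 and 61.0 CPM with hairpin 1 and 50.5, 39.6 and 51.0 CPM with hairpin 2, against 35.9, 32.1 and 41.5 CPM with scramble. Hairpin 2 replicate 2 lay within the scramble range. CLK4 was at 0.45 ± 0.14 there and just missed the threshold (adjusted p = 0.0511). CLK1 was at 0.37 ± 0.18 in MOLM13 and 0.51 ± 0.20 in MV411 and did not pass in either. In SKNO1, CLK1 was at -0.32 ± 0.26 and CLK4 at -0.11 ± 0.23.

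Both hairpins of a line are set against the same 3 scramble libraries, so their fold changes are not independent. Hairpin 1 lowered 13 members in MOLM13 and hairpin 2 lowered 13, and no member rose with either. Those shares compare with 4.25% of all genes lower and 2.13% higher with hairpin 1, and 6.03% lower and 3.39% higher with hairpin 2. SNRPD1 was at -1.10 ± 0.20 with hairpin 1 and -1.09 ± 0.19 with hairpin 2, SNRPF at -0.99 ± 0.14 and -1.11 ± 0.14, and LSM4 at -0.95 ± 0.18 and -0.90 ± 0.18. SNRPA1 was at -0.84 ± 0.19 with hairpin 1 and -0.91 ± 0.19 with hairpin 2, and SRSF1 at -0.59 ± 0.14 and -0.65 ± 0.14, all past the threshold. Same-numbered libraries of scramble and hairpin 1 deviated together, and with the replicate number as a block hairpin 1 lowered 8 members, without SRSF1 (adjusted p = 0.0626). The block covered all libraries of the line, though same-numbered libraries of scramble and hairpin 2 did not all deviate together (correlations -0.263 to 0.281). No member differed between hairpin 2 and hairpin 1 in MOLM13, nor did any other gene (0% of all genes tested by edgeR). For the members, 1 had an unadjusted p under 0.05 by edgeR, and DESeq2 called 0. Leaving out 1 library gave 2 to 14 calls for hairpin 1 (2 without scramble replicate 2 or 3, or hairpin 1 replicate 2 or 3) and 3 to 14 for hairpin 2 (3 without scramble replicate 2).

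In MV411, 4 members fell with knockdown and 1 rose, against 3.72% of all genes lower and 1.71% higher. DESeq2 called 11 members, and so did edgeR with the hairpins as separate groups (10 lower and 1 higher each). Shares of all genes were not counted under these settings. The members' median was -0.27, with 45 of 54 below 0, and that of all genes was 0.01. The genes that fell were SNRPA1, SNRPA, LSM4 and SNRPD1, and all of them also fell in MOLM13. SNRPA1 had 10.6, 12.9 and 9.92 CPM with hairpin 1 and 9.06, 8.29 and 9.92 CPM with hairpin 2, against 17.1, 17.98 and 17.3 CPM with scramble. The scramble libraries were tightly grouped above all knockdown libraries (log2 fold change -0.80 ± 0.15, adjusted p = 0.0103). SNRPD1 had 36.7, 37.8 and 42.2 CPM with hairpin 1 and 42.2, 30.6 and 55.0 CPM with hairpin 2, against 81.3, 54.1 and 70.7 CPM with scramble. Hairpin 2 replicate 3 overlapped the lowest scramble library, and the fold change was -0.77 ± 0.18 (adjusted p = 0.0278). The groups did not overlap in 8 members that were lower and in 1 that was higher, CLK4, against 6.59% and 5.92% of all genes. The members summed to 7173 ± 744 CPM with knockdown and 8207 ± 801 CPM with scramble (exact permutation test, p = 0.119, adjusted p = 0.196). Mitochondrial rRNA made up 31.8% ± 1.95 of the counts with knockdown and 26.2% ± 1.47 with scramble in this line, and its part in these results was not tested. No member was called without scramble replicate 3.

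The hairpins of MV411 gave different numbers of calls. Hairpin 1 lowered 7 members and raised CLK4, against 4.13% of all genes lower and 2.37% higher. Hairpin 2 lowered 13 and raised CLK4, against 10.2% lower and 8.38% higher. In this line same-numbered libraries of scramble and of each hairpin deviated together. With the replicate number as a block, hairpin 1 gave 14 calls (12 lower and 2 higher) and hairpin 2 gave 24 (23 lower and 1 higher). The block also gave 6 members between the hairpins, whose same-numbered libraries did not all deviate together (correlations 0.064 to 0.254). Shares of all genes were not counted with the block. SNRPA had 44.0, 40.2 and 46.3 CPM with hairpin 2 and 50.2, 50.7 and 50.6 CPM with hairpin 1, against 76.6, 64.4 and 70.6 CPM with scramble. Both hairpins lay below scramble, at -0.72 ± 0.12 (hairpin 2) and -0.49 ± 0.12 (hairpin 1). LSM4 had 47.3, 44.5 and 58.2 CPM with hairpin 2 and 48.0, 44.0 and 56.9 CPM with hairpin 1, against 77.8, 63.1 and 94.0 CPM with scramble. It was at -0.67 ± 0.17 with each hairpin. LSM2, another LSm subunit, had 12.02, 11.9 and 18.7 CPM with hairpin 2, against 23.2, 18.9 and 21.1 CPM with scramble, and fell by 0.59 on the log2 scale. SNRPB had 76.0, 73.8 and 85.3 CPM with hairpin 2 and 78.7, 75.3 and 96.2 CPM with hairpin 1, against 117, 94.9 and 121 CPM with scramble. The hairpin 2 libraries were below every scramble library, at -0.52 ± 0.15, and SNRPB with hairpin 1 did not pass (-0.42 ± 0.15, adjusted p = 0.126) but did with the replicate block (adjusted p = 0.0326). SNRPF had 17.9, 15.1 and 22.9 CPM with hairpin 2, against 29.8, 23.1 and 29.3 CPM with scramble, and was at -0.58 ± 0.17. Replicate 3 of hairpin 2 came close to the lowest scramble library. SRSF2 had 101, 106 and 135 CPM with hairpin 2 and 153, 164 and 170 CPM with hairpin 1, against 170, 184 and 229 CPM with scramble. The hairpin 2 libraries were the lowest, and the fold change was -0.79 ± 0.16 with hairpin 2 (adjusted p = 0.00586) and -0.27 ± 0.15 with hairpin 1 (adjusted p = 0.385). SRSF1 had 151, 128 and 184 CPM with hairpin 2, against 247, 206 and 268 CPM with scramble, and was at -0.66 ± 0.16. SRSF7 had 92.2, 71.6 and 118 CPM with hairpin 2, against 161, 123 and 166 CPM with scramble, and was at -0.70 ± 0.19. Neither group overlapped its scramble group. TRA2B and SNRPD3 also fell with hairpin 2. Between the hairpins themselves, 2 members differed, against 11.5% of all genes. LSM7, an LSm subunit, was lower with hairpin 2 than with hairpin 1 (-0.60 ± 0.16, adjusted p = 0.0392), at 26.6, 28.9 and 21.3 CPM with hairpin 2 and 38.3, 40.6 and 37.0 CPM with hairpin 1, against 29.6, 39.6 and 41.3 CPM with scramble. SNRPC was higher with hairpin 2 than with hairpin 1 (0.54 ± 0.14, adjusted p = 0.0334), at 33.1, 31.8 and 39.4 CPM with hairpin 2 and 22.7, 24.97 and 23.7 CPM with hairpin 1. Against scramble, SNRPC fell with hairpin 1 and did not pass with hairpin 2. Leaving out 1 library gave 0 to 10 calls for hairpin 1 (0 without scramble replicate 1 or 3, or hairpin 1 replicate 1 or 3), 3 to 20 for hairpin 2 (3 without scramble replicate 3 or hairpin 2 replicate 1) and 0 to 3 between the hairpins.

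**Figure D3:**
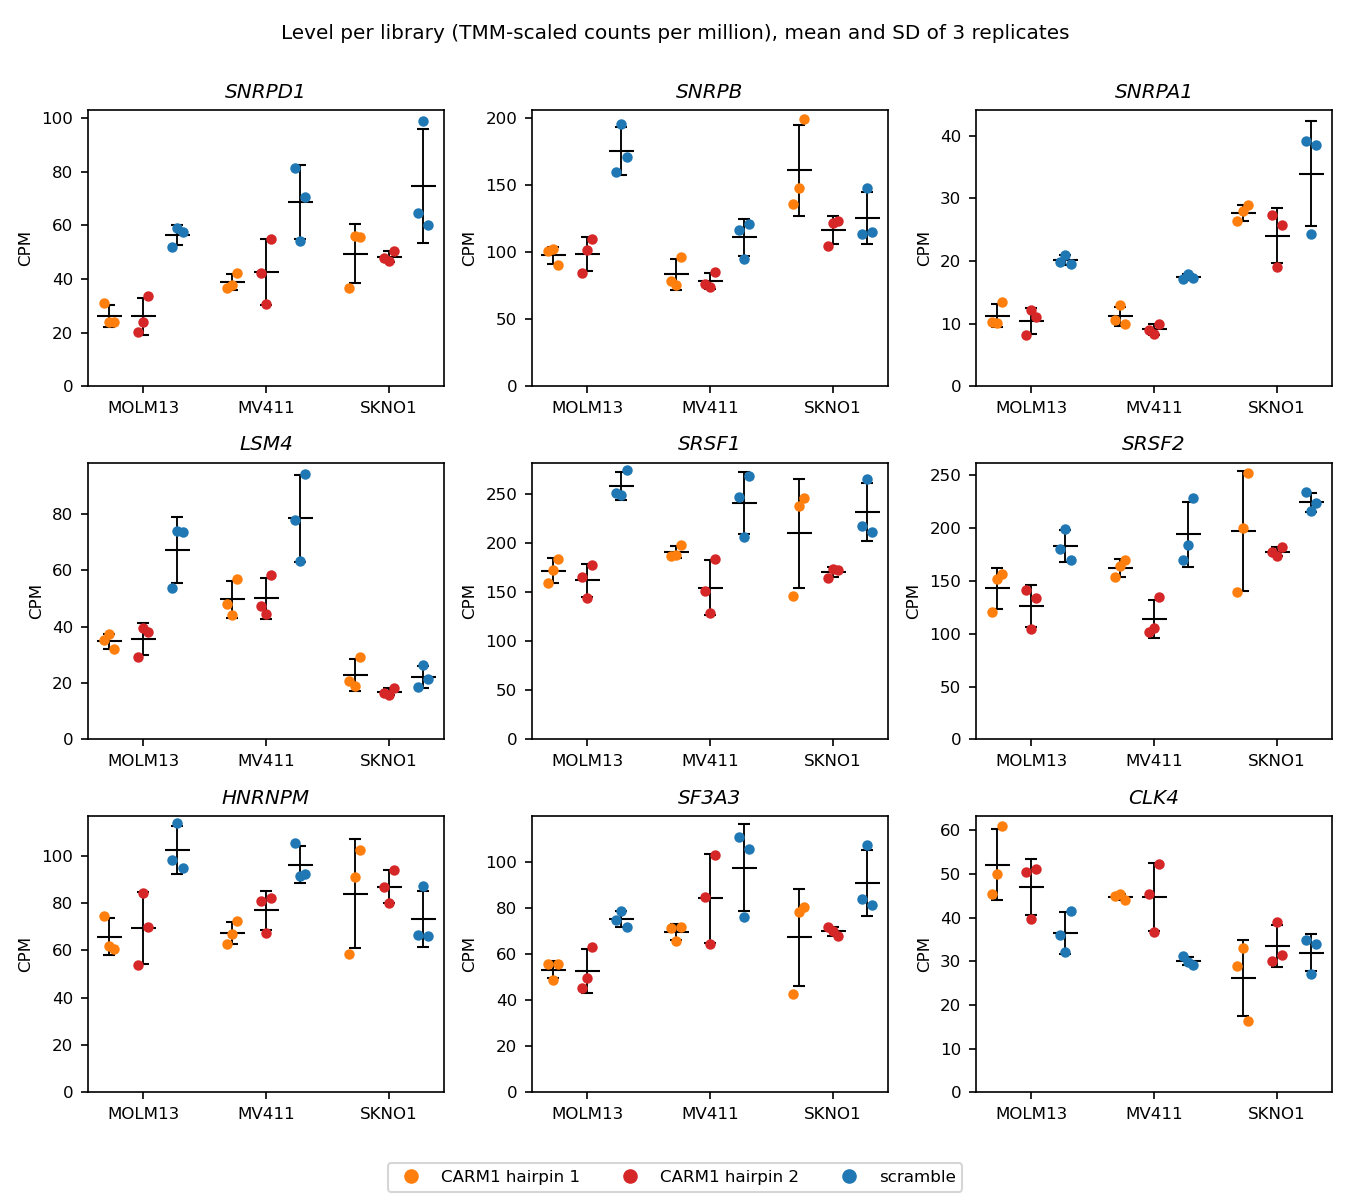
Points give CPM in each library for 9 members, with the mean and SD of the 3 replicates of hairpin 1, hairpin 2 and scramble in each line. SNRPD1, SNRPB, SNRPA1, LSM4, SRSF1, HNRNPM and SF3A3 lie lower in all knockdown libraries than in all scramble libraries of MOLM13, and CLK4 lies higher with knockdown in MV411.

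In SKNO1 no member passed the threshold with both hairpins pooled, against 0.0109% of all genes lower and 0.0326% higher. By edgeR 8 of the 54 had an unadjusted p under 0.05, and DESeq2 called none either. Of these 8, SNRPD1, LSM5 and SRSF10 had fold changes below 0 and the others above 0. Shares of all genes at this unadjusted level are not given here. CARM1 itself did not pass in this pooled fit (log2 fold change -1.80 ± 0.36, adjusted p = 0.0702). It passed by edgeR with the hairpins as separate groups (-1.97 ± 0.16, adjusted p = 9.26e-05), where no member passed either. In the pooled fit the members' median was -0.11, with 34 of 54 below 0, and that of all genes was 0.01. SNRPD1 had the smallest p. It had 36.8, 56.0 and 55.5 CPM with hairpin 1 and 48.0, 46.6 and 50.6 CPM with hairpin 2, against 64.7, 99.0 and 60.1 CPM with scramble. All knockdown libraries were below the scramble libraries, 1 of which was far above the others, and the fold change was -0.63 ± 0.20 (adjusted p = 0.172). The groups did not overlap in 4 members. SNRPD1 and SF3A3 were lower, against 3.97% of all genes. U2AF2, the large U2AF subunit that binds the polypyrimidine tract, and HNRNPL were higher, against 4.63%. None of these passed the test. The members summed to 7411 ± 649 CPM with knockdown and 7593 ± 584 CPM with scramble (exact permutation test, p = 0.726, adjusted p = 0.829). Structured RNAs made up 24.9% ± 2 of the counts with knockdown and 18.6% ± 1.14 with scramble in SKNO1 (exact permutation test, p = 0.0119, adjusted p = 0.0298), and their part in these results was not tested.

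Each SKNO1 hairpin on its own also gave no call. All genes were lower in 0.277% and higher in 0.255% with hairpin 1, and lower in 5.69% and higher in 5.54% with hairpin 2. With edgeR, 8 members with hairpin 1 and 9 with hairpin 2 had an unadjusted p under 0.05, and DESeq2 called 2 and 4. Of the 8 with hairpin 1, SNRPD1 and SRSF10 had fold changes below 0 and the others above 0. Of the 9 with hairpin 2, SF3B4 and U2AF2 were above 0 and the others below 0. Without hairpin 1 replicate 1, edgeR called 5 members for hairpin 2, and without scramble replicate 2 it called 1. Leaving out hairpin 1 replicate 2 also gave calls for hairpin 2. The fold change of LSM6 was -0.73 ± 0.23 with hairpin 2 (adjusted p = 0.0561). Between the hairpins, 3 members differed, against 9.52% of all genes. LSM7 (-0.68 ± 0.20, adjusted p = 0.0484) and SF3B3 (-0.56 ± 0.15, adjusted p = 0.0354) were lower with hairpin 2 than with hairpin 1. HNRNPA1 was higher with hairpin 2 than with hairpin 1 (0.60 ± 0.17, adjusted p = 0.0392), at 1744, 1732 and 1785 CPM with hairpin 2 and 859, 1308 and 1289 CPM with hairpin 1. No library of one hairpin reached the other for HNRNPA1. Against scramble, HNRNPA1 was at 0.354 ± 0.166 with hairpin 2 and -0.249 ± 0.166 with hairpin 1, and neither passed the threshold. The 3 calls between the hairpins were 0 to 5 when 1 library was left out (0 without hairpin 1 replicate 3 or any replicate of hairpin 2). LSM7 was lower with hairpin 2 than with hairpin 1 in MV411 as well as in SKNO1, and its fold changes against scramble were -0.54 ± 0.17 (hairpin 2) and 0.06 ± 0.16 (hairpin 1) in MV411 and -0.01 ± 0.20 and 0.67 ± 0.20 in SKNO1. In MOLM13, LSM7 did not pass between the hairpins (-0.159 ± 0.199, unadjusted p = 0.441 by edgeR).

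**Figure D4:**
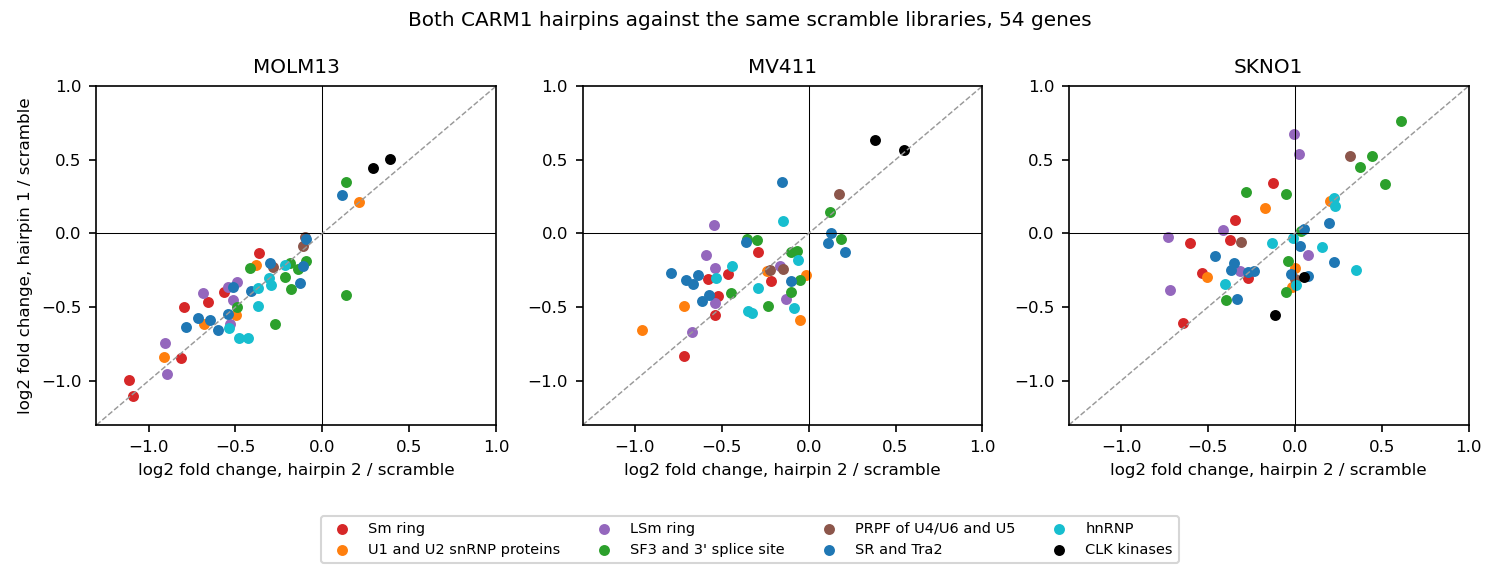
Each point is 1 of the 54 genes, coloured by role, with the log2 fold change of hairpin 2 over scramble on the horizontal axis and of hairpin 1 over scramble on the vertical axis. The dashed line marks equal values, and both axes share the scramble libraries. In MOLM13 SNRPD1 lies at about -1.1 for both hairpins, and in SKNO1 the points spread around 0.

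With the 3 lines combined, 18 knockdown and 9 scramble libraries with line as a term, 21 members fell and none rose, against 10.8% of all genes lower and 10.2% higher. The median was -0.21 for the members and 0.04 for all genes, and 47 of 54 were below 0. By role, the calls were 5 of 7 in the Sm ring, 3 of 5 among U1 and U2 proteins, 4 of 7 in the LSm ring, 1 of 10 among the SF3 and 3' splice site factors, 0 of 3 PRPF genes, 6 of 12 SR and Tra2 genes, 2 of 8 hnRNP genes and 0 of 2 CLK genes. SNRPD1 (-0.83 ± 0.11, adjusted p = 1.86e-06) and SNRPA1 (-0.70 ± 0.10, adjusted p = 9.99e-06) had the smallest p. The MOLM13 libraries are part of this fit. SNRPD3, SNRPC, LSM3, LSM6 and SRSF2 passed here and not in MOLM13 alone. Of the 3 members named above as CARM1 substrates, SNRPB (-0.41 ± 0.11) and SNRPC (-0.33 ± 0.12) fell. SF3B4, an SF3 subunit, was at -0.02 ± 0.11 in the combined fit, and at -0.27 in MOLM13, -0.17 in MV411 and 0.43 in SKNO1, where it did not pass either. Removing 1 library left 18 to 25 members called.

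Interaction contrasts over the 27 libraries tested whether the knockdown effect differed between lines. GM-CSF, listed for SKNO1 only, and the RNA composition of the libraries cannot be told apart from the line in contrasts with SKNO1. Between MOLM13 and SKNO1, 4 members differed, and 3.32% of all genes did so. DESeq2 called 11, RLE scaling gave 2, and leaving out mitochondrial rRNA and structured RNAs gave 2. SNRPB was at -0.83 ± 0.12 in MOLM13 and 0.13 ± 0.20 in SKNO1, a difference of -0.96 ± 0.20 (adjusted p = 0.0121). It had 136, 148 and 199.5 CPM with hairpin 1 and 105, 122 and 123 CPM with hairpin 2 in SKNO1, against 113, 148 and 115 CPM with scramble, which overlap. Its fold change in SKNO1 was 0.345 ± 0.188 with hairpin 1 and -0.124 ± 0.188 with hairpin 2, and neither passed the threshold. HNRNPM differed by -0.82 ± 0.22 (adjusted p = 0.0423), U2AF2 by -0.69 ± 0.16 (adjusted p = 0.0205) and HNRNPL by -0.63 ± 0.17 (adjusted p = 0.042). In these 3 genes the fold change was below 0 in MOLM13 and above 0 in SKNO1. Leaving out 1 library gave 0 to 9 calls, with 0 without MOLM13 scramble replicate 2 or SKNO1 scramble replicate 1 or 3 and 6 without SKNO1 scramble replicate 2. Between MOLM13 and MV411 edgeR and DESeq2 called no member (0.0047% of all genes by edgeR). Between MV411 and SKNO1 edgeR called none (1.44% of all genes) and DESeq2 called 2. The number of members with an unadjusted p under 0.05 by edgeR was 1 in the first of these and 13 in the second.

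The lines also differed before any knockdown, though in a smaller share of the members than of all genes. Mitochondrial rRNA made up 0.09125% ± 0.0153 of the counts in scramble libraries of SKNO1. It made up 24.87% ± 1.82 in those of MOLM13 and 26.25% ± 1.47 in those of MV411. GM-CSF was listed for SKNO1 only. In comparisons with SKNO1, neither can be told apart from the line, and their part was not tested. In scramble libraries, 24 of the 54 members differed between SKNO1 and MOLM13 (18 lower and 6 higher in SKNO1), against 56% of all genes. Between SKNO1 and MV411, 21 of the 54 differed (15 lower and 6 higher in SKNO1), against 55.5% of all genes. SF3A2, an SF3 subunit of the U2 particle, had 4.14, 2.73 and 4.86 CPM in SKNO1, against 17.1, 24.2 and 18.7 CPM in MOLM13 and 14.4, 21.6 and 18.5 CPM in MV411. Its level in SKNO1 was far below both other lines, which overlapped (log2 -2.36 ± 0.25 and -2.22 ± 0.25, adjusted p = 1.12e-05 and 1.76e-05). LSM4 had 18.7, 26.4 and 21.5 CPM in SKNO1, against 53.6, 74.0 and 73.6 CPM in MOLM13 and 77.8, 63.1 and 94.0 CPM in MV411. It was the LSm gene with the largest difference, and LSM7 and LSM8 were also lower in SKNO1 than in both other lines. PRPF8, the scaffold of the catalytic core, had 179.9, 149 and 185 CPM in SKNO1, against 487, 463 and 352 CPM in MOLM13 and 446, 381 and 406 CPM in MV411, again without overlap. SNRPA1 was higher in SKNO1, at 39.1, 24.2 and 38.5 CPM, than in MOLM13 and MV411, whose libraries lay between 17.1 and 21.0 CPM. SRSF5, SF3B3 and SF3B2 were also higher in SKNO1 than in both. Between MOLM13 and MV411, 6 of the 54 members differed, a smaller share than the 30.8% of all genes. SNRPB (0.68 ± 0.15), LSM2 (0.72 ± 0.16), SNRPC (0.56 ± 0.16), CLK1 (0.49 ± 0.15) and HNRNPD (0.42 ± 0.13) were higher in MOLM13 than in MV411 (log2), and SRSF9 was lower (-0.38 ± 0.12). Leaving out MV411 scramble replicate 3 left 2 of these 6.

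**Figure D5:**
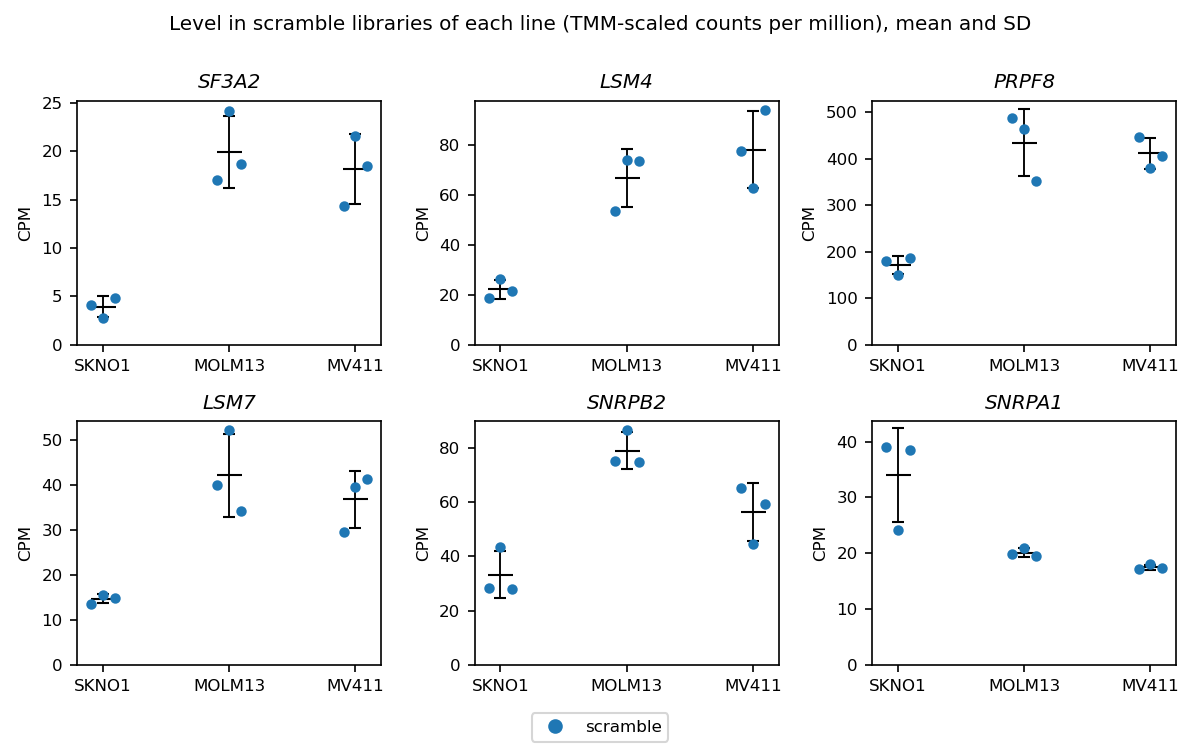
Points give CPM in each of the 3 scramble libraries of SKNO1, MOLM13 and MV411 for 6 members, with the mean and SD. SF3A2, LSM4, PRPF8, LSM7 and SNRPB2 lie lowest in SKNO1 (SF3A2 at 2.73 to 4.86 CPM) and SNRPA1 lies highest there.

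A wider list of 137 other splicing genes was counted the same way. Its counts below are of rows of the expression table, where MATR3 has more than 1 row. In MOLM13, 29 of 137 fell and 1 rose with knockdown, against 9.09% and 6.48% of all genes, with a median of -0.24, against 0.05 for all genes. They included genes of the complex that loads the Sm ring onto snRNA, with GEMIN5 at -1.004 ± 0.19 and GEMIN4 at -0.66 ± 0.12. In the exon junction complex and nonsense-mediated decay, 4 of 15 genes fell, led by MAGOHB (-0.84 ± 0.12) and RBM8A (-0.78 ± 0.14). Among other hnRNP genes 8 of 26 rows fell, with MATR3 in more than 1 of the 26, led by HNRNPA0 (-0.69 ± 0.11) and HNRNPR (-0.68 ± 0.11). RNPC3, a protein of the minor spliceosome that removes rare introns, was the gene that rose (0.60 ± 0.17, adjusted p = 0.0355). In MV411, 4 of 137 fell with the hairpins pooled and none rose, against 3.72% of all genes lower and 1.71% higher. With hairpin 2 alone 19 fell and 2 rose, against 10.2% and 8.38% of all genes. SNRNP25, another minor spliceosome protein, was at -1.32 ± 0.20. In SKNO1, none of 136 tested passed with the hairpins pooled. By edgeR 14 had an unadjusted p under 0.05, some lower and some higher, and DESeq2 was not counted for this list. With the hairpins as separate groups, SNRNP48 of the minor spliceosome fell in SKNO1 by edgeR (-0.76 ± 0.18, adjusted p = 0.0358). Shares of all genes were not counted under that setting. With hairpin 2 alone, 5 of 136 fell in SKNO1, a smaller share than the 5.69% of all genes, among them PPIH (-1.01 ± 0.24), GEMIN6 (-0.76 ± 0.17), GEMIN8 (-0.78 ± 0.21) and SNRNP25. In the 3 lines combined 34 fell and none rose, against 10.8% and 10.2% of all genes, with a median of -0.14, against 0.04 for all genes.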

How the data were processed

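Total RNA of 27 libraries was sequenced after rRNA depletion with a stranded kit, per the labels' protocols. Per the submitters' processing notes, the authors used STAR 2.5.3 for alignment (genome build GRCh38.p7) and RSEM for counting (RSEM version not given in the sources used here). The deposited table holds RSEM expected counts per gene, without normalization. RSEM divides reads shared by near-identical copies, so 36 of the 54 members had a non-whole count in some library and their values are uncertain to that extent. The strand setting of the counting is not given in the sources used here, so antisense overlaps could add reads.

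Expected counts were rounded and tested in R 4.3.3 with edgeR 4.0.16 (filterByExpr with minimum count 10 and minimum total 15, TMM scaling, quasi-likelihood F-test, Benjamini-Hochberg adjustment over all genes tested, threshold 0.05). The SE of an edgeR fold change is its absolute log2 value divided by the square root of the F statistic. Each line's 6 knockdown libraries were set against its 3 scramble libraries. Single hairpins used the same 9 libraries in 3 groups, the combined fit used line as a term, and differences between lines were interaction contrasts over all 27 libraries. Alternatives were DESeq2 1.42.0, RLE scaling, no filter, leaving out mitochondrial rRNA and structured RNAs, a replicate block, and leaving out each replicate. CPM use TMM scaling over all libraries. P-values measure only the spread between these samples, which may be technical. Same-numbered libraries were taken as paired where all 3 correlations of their deviations from the group means were over 0.1, as for scramble with MOLM13 hairpin 1 (0.135 to 0.287), MV411 hairpin 1 (0.14 to 0.192) and MV411 hairpin 2 (0.155 to 0.501). The pairing comes from the data, not the labels. Library-level values were compared with two-sided exact permutation tests. Positions are from GENCODE 29. The test was checked on simulated data. The members and lists were chosen with earlier results of these data known. CARM1 and its known splicing substrates were always named, except 1 that is not reported here. Values in every sample are given for members past the threshold, at least the 3 with the smallest p of each role in MOLM13 and MV411 hairpin 2, and for those with the smallest p of the opposite direction. Other splicing genes were named up to 2 per role and direction by smallest p. Further genes named were chosen after their values were seen.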

Additional observations from a re-analysis of the deposited data

Results flagged for a closer look

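The effect of CARM1 knockdown differed between MOLM13 and SKNO1 in 4 members, each by an interaction term of edgeR's fit over all 27 libraries. GM-CSF was listed for SKNO1 only. Mitochondrial rRNA made up 0.1728% of the counts with knockdown and 0.09125% with scramble in SKNO1. In MOLM13 it made up 28.25% and 24.87%. Neither can be told apart from the line, and their part was not tested. The difference, MOLM13 minus SKNO1 on the log2 scale, was -0.96 for SNRPB, -0.82 for HNRNPM, -0.69 for U2AF2 and -0.63 for HNRNPL. SNRPB was called in 29 of 32 alternative analyses (highest adjusted p = 0.0713), U2AF2 in 28 (0.108), HNRNPL in 18 (0.181) and HNRNPM in 17 (0.152).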

How the results depend on the processing

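Counts below are members called, with the count reported above in brackets. Shares of all genes called were counted for the main fits only, so no such share stands beside these alternatives. DESeq2 gave 20 for MOLM13 hairpin 2 (13), 11 for MV411 knockdown (5), 4 between the MV411 hairpins (2), 2 for SKNO1 hairpin 1 and 4 for SKNO1 hairpin 2 (0 each), 11 for MOLM13 against SKNO1 (4) and 2 for MV411 against SKNO1 (0). Hairpins as separate groups gave 11 for MV411 knockdown (5). No filter gave 4 for SKNO1 hairpin 2 (0) and 1 for MV411 against SKNO1 (0). RLE scaling and leaving out mitochondrial rRNA and structured RNAs each gave 2 for MOLM13 against SKNO1 (4). The largest shift of the median of all genes by scaling or by leaving out those RNAs was 0.04 (log2). The cause of these differences was not tested. The replicate block gave 8 for MOLM13 hairpin 1 (13), 14 for MV411 hairpin 1 (8), 24 for MV411 hairpin 2 (14), 6 between the MV411 hairpins (2), 1 for SKNO1 hairpin 2 (0) and 3 between scramble libraries of MOLM13 and MV411 (6). It moved no other count of calls by over 1.5 times. The correlation of same-numbered deviations was over 0.1 in 5 of 9 pairs in MOLM13, 8 of 9 in MV411 and 4 of 9 in SKNO1, and the best match of a library carried its own number in 5, 7 and 7 of 9 libraries.

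Leaving out 1 library at a time gave 10 to 28 for MOLM13 knockdown, 2 to 14 and 3 to 14 for its hairpins 1 and 2, 0 to 6 for MV411 knockdown, 0 to 10 and 3 to 20 for its hairpins 1 and 2, 0 to 3 between the MV411 hairpins, 0 to 5 for SKNO1 hairpin 2, 0 to 5 between the SKNO1 hairpins, 18 to 25 for the lines combined, 0 to 9 for MOLM13 against SKNO1, 0 to 2 for MV411 against SKNO1 and 2 to 7 between scramble libraries of MOLM13 and MV411. Of the members called, 10 of 19 in MOLM13, 0 of 5 in MV411 and 18 of 21 in the combined fit were called in every alternative. Alternatives were run for single members only where they were called against scramble, and for CARM1 and its substrates. Of these fold changes, 2 changed sign. SF3B4 in the combined fit (-0.02) was 0.005 with DESeq2 and with RLE scaling and between -0.061 and 0.026 without single libraries, with values of 0.005, 0.007, 0.008, 0.011, 0.013, 0.014 and 0.026 above 0. SNRPC in SKNO1 (-0.18) was 0.03 without scramble replicate 2 and otherwise as low as -0.272. The lowest count of a member in a library was 63.1.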
